A study of Homo sapiens with 3 samples.

Results

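The cells described here are the HRK-expressing cells of Kelly cultures that had become partly resistant to an ALK inhibitor. Kelly is a neuroblastoma cell line of human origin, with amplified MYCN and an activated ALK receptor, and TAE684 is a small-molecule inhibitor of the ALK kinase. Single-cell RNA was counted in 3 libraries of this line, 1 for each state: sensitive cells grown in the vehicle DMSO, intermediate resistant cells grown in 500 nM TAE684 and fully resistant cells grown in 1 µM TAE684. All 3 cultures shared the same medium with fetal bovine serum, and no other allele or agent is named in the labels. Because each state is 1 culture and 1 library, no comparison below has a replicate check, none was tested and p-values are not given. Every interval is a 95% interval that covers counting error only.

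Cells were barcodes with at least 9500 UMIs (counts of distinct RNA molecules), at least 500 genes and at most 20% of UMIs from mitochondrially encoded genes. In the intermediate resistant library 5836 barcodes met this rule, out of 16586 in the 3 libraries. A cell was called HRK-expressing when it held at least 3 HRK UMIs, which 1258 cells did, or 21.6% of the library (exact Clopper-Pearson interval 20.5 to 22.6%). The 2482 cells of the same library with 0 HRK UMIs served as the HRK-negative cells, and the 2096 cells with 1 or 2 HRK UMIs lay between them. The groups were chosen by HRK UMIs per cell, so the HRK level of the groups is a description, and HRK was left out of every comparison of other genes.

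HRK (Harakiri) is a BH3-only member of the BCL2 family. Such proteins bind the anti-apoptotic members BCL2 and BCL2L1 and so favour release of cytochrome c through BAX and BAK1. In sympathetic neurons of rodents HRK is known for its induction when nerve growth factor is withdrawn, downstream of the JNK kinases. Neuroblastoma arises from the same sympathetic lineage.

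The depth was similar in the 3 libraries. The median cell carried 16555 UMIs in sensitive, 16036.5 in intermediate resistant and 16488 in fully resistant cultures. Pairs of libraries shared between 36 and 53 cell barcodes, at most 1.08% of the smaller library. Within the intermediate resistant library depth moved with HRK: the median was 17552.5 UMIs in HRK-expressing cells, against 15130 in HRK-negative cells. Each cell was therefore thinned at random to 9500 UMIs before levels were summed, and levels are given as CPM, counts scaled to 1000000 UMIs of the group. At these depths 0 HRK UMIs does not show that a cell lacked HRK RNA.

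HRK stood apart in the intermediate resistant library. Over thinned cells its level was 7.23 CPM in sensitive cells, 87.1 CPM in intermediate resistant cells and 4.22 CPM in fully resistant cells. Cells with at least 1 HRK UMI made up 10.8% of the sensitive cells, 57.5% of the intermediate resistant cells and 6.21% of the fully resistant cells. At least 3 UMIs were found in 16 sensitive cells (0.326%, 0.186 to 0.529%), 1258 intermediate resistant cells and 9 fully resistant cells (0.154%, 0.0705 to 0.292%). Thinning all cells to the same depth left 0.0408%, 9.20% and 0.0685% of cells with at least 3 HRK UMIs in the sensitive, intermediate resistant and fully resistant libraries. The middle library was thus high on every one of these counts, and the outer libraries were low on each.

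RNA outside cells carried HRK as well. Barcodes with 10 to 100 UMIs, which hold mostly free RNA, had 38.6 HRK CPM in the intermediate resistant library, against 4.83 CPM in the sensitive and 3.01 CPM in the fully resistant library. No cell type that should lack HRK is present in a culture of 1 line, so a background share of cells could not be measured.

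Among the HRK-expressing cells the median was 4 HRK UMIs and the highest count was 19. They held 66.7% of the library's HRK UMIs in cells. There were 792 cells with 3 or 4 HRK UMIs, 424 with 5 to 9 and 42 with 10 or more. The number of cells fell at each step up to 14 HRK UMIs, with no gap at the limit of 3. After thinning, the variance of HRK over cells was 1.83 times its mean, where the median was 1.08 over 1821 genes of like mean, 35 of which had a higher ratio. HRK was thus spread more unevenly over cells than most genes of its level.

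**Figure D1:**
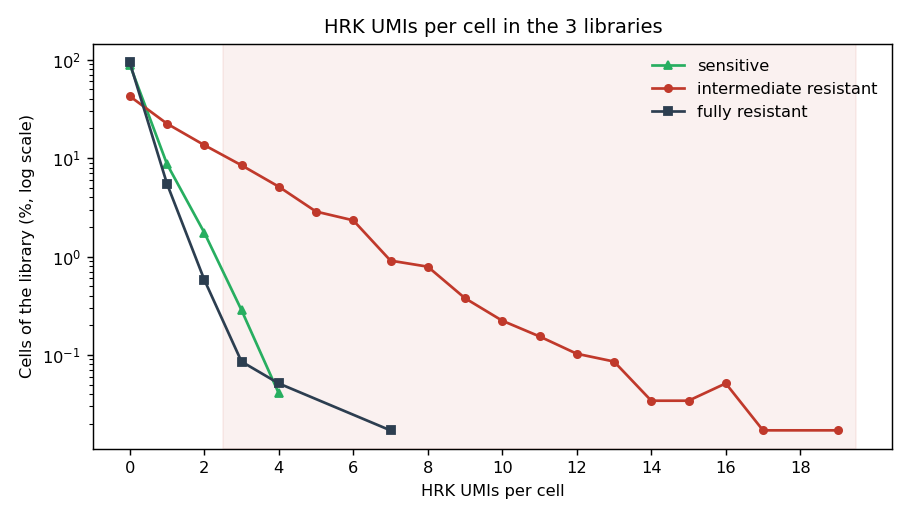
Percentage of cells (log scale) at each count of HRK UMIs per cell, before thinning, in the sensitive, intermediate resistant and fully resistant libraries; the shaded range marks the counts of at least 3 that define HRK-expressing cells. The intermediate resistant library reached 19 UMIs in a cell, and its line falls at each step up to 14 UMIs. No cell held 18 UMIs, and the line is drawn across that count.

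The promoter of HRK holds an ATF-type word, the class of site at which ATF2 and JUN act in JNK signalling. It is shown with the promoters of E2F2, a gene called higher below, and CARTPT, a gene called lower below. The sequences are from RefSeq on GRCh38.p14 and run from 250 bases before to 50 bases after the start site, 5′ to 3′ on the gene's strand. HRK lies at chr12:116881392-116881691 on the minus strand, E2F2 at chr1:23531184-23531483 on the minus strand and CARTPT at chr5:71719025-71719324 on the plus strand. Capitals mark the words searched.
HRK: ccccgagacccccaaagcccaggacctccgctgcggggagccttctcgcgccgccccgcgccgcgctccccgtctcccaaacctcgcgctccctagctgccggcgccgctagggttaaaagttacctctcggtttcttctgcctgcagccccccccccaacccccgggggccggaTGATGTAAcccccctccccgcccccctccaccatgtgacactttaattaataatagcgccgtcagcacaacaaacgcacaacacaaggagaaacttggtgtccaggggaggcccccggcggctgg
E2F2: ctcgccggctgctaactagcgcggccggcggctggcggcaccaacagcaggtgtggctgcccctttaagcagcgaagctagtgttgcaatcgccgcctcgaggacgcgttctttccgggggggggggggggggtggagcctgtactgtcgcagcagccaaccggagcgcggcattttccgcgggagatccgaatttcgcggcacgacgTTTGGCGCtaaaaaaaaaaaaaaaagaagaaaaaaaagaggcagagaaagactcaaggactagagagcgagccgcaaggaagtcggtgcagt
CARTPT: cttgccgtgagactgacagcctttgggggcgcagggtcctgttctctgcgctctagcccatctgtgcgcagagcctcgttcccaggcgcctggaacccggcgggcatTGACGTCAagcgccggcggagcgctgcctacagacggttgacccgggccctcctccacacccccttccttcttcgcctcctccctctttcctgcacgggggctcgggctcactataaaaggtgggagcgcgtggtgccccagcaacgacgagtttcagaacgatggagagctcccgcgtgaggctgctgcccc

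The ATF-type words searched on both strands were TGATGTAA and TGACGTCA, and the E2F-type words were TTTCCCGC, TTTCGCGC, TTTGCCGC and TTTGGCGC. HRK held TGATGTAA starting 75 bases before its start site. E2F2 held TTTGGCGC starting 42 bases before and CARTPT held TGACGTCA starting 143 bases before. An ATF-type word was present in 2.84% of 27305 RefSeq promoters, in 0 of 50 matched promoters of the genes called higher in HRK-expressing cells and in 1 of 19 of those called lower. An E2F-type word was present in 3.33% of all promoters, in 7 of the 50 and in 0 of the 19. The called genes came from the 4833 genes at 20 CPM or more. The 27305 promoters were not limited to expressed genes, so these shares are from unlike sets and were not tested. A word is a match of letters and does not show that a factor binds there.

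The label gives DPF1 and SMCO4 as markers of these cells beside HRK. DPF1 is a neuronal subunit of the BAF chromatin remodelling complex, and SMCO4 encodes a small membrane protein. DPF1 was at 59.4 CPM in HRK-expressing cells, against 41.9 CPM in HRK-negative cells, a ratio of 1.42. SMCO4 was at 40.4 CPM in HRK-expressing cells, against 32.5 CPM in HRK-negative cells, a ratio of 1.24. Both were higher by less than the 1.5-fold used here as the limit of a call, and under a second random thinning DPF1 passed it, with a log2 ratio of 0.67 against a limit of 0.58. In cells with exactly 3 HRK UMIs DPF1 was at 50.8 CPM and SMCO4 at 37.6 CPM, against 51.9 and 40.5 CPM in cells with exactly 2. The 2 markers therefore did not set these cells off sharply, and the cells are called by their HRK count here.

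A gene was called higher or lower at 1.5-fold when the higher group reached 20 CPM. Of 4833 genes that reached 20 CPM in either group, 62 were called higher in HRK-expressing cells (1.28%) and 22 were called lower (0.455%). The split of the calls moved with the scaling: 62 higher and 22 lower with totals of all UMIs, 24 and 42 with TMM scaling, 31 and 40 with median-of-ratios scaling, and 64 and 65 with ribosomal protein and mitochondrially encoded genes out of the totals. The median log2 ratio of all 9214 genes at 5 CPM or more was 0.08 with all UMIs and 0.00 with TMM scaling. Differences were small in size, since 1 gene in each direction reached 2-fold.

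HIST1H4C, a replication-dependent histone H4 gene, had the highest ratio of the 62 genes. It was at 2336 CPM in HRK-expressing cells, against 1101 CPM in HRK-negative cells, a 2.12-fold difference (2.09 to 2.16). It shares coding sequence with other histone H4 genes, so its counts may hold reads of near copies. CDKN2D, an inhibitor of CDK4 and CDK6, was at 33.8 CPM in HRK-expressing cells, against 17.3 CPM in HRK-negative cells (1.95-fold, 1.69 to 2.24). E2F2, a transcription factor of the G1 to S phase step, was at 23.4 CPM in HRK-expressing cells, against 12.04 CPM in HRK-negative cells (1.94-fold, 1.64 to 2.29). RRM2, a subunit of ribonucleotide reductase, was at 132 CPM in HRK-expressing cells, against 78.7 CPM in HRK-negative cells (1.67-fold, 1.56 to 1.79). All 4 genes are linked to S phase entry or to DNA synthesis. They were not the 4 highest ratios: FRMD4B, which encodes a FERM domain protein, was at 27.4 CPM in HRK-expressing cells, against 13.7 CPM in HRK-negative cells. ADRA2A, the alpha-2A adrenergic receptor, was at 22.5 CPM in HRK-expressing cells, against 12.09 CPM in HRK-negative cells, and both genes were picked after their values were seen. When HRK-negative cells were weighted to the depth of HRK-expressing cells, HIST1H4C had a log2 ratio of 0.76, CDKN2D one of 0.75, E2F2 one of 0.86 and RRM2 one of 0.52, the last under the limit.

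Some further called genes had related roles. POLD3, a subunit of DNA polymerase delta, had a log2 ratio of 0.66 and CHAF1B, a histone chaperone of replication, one of 0.62. RNASEH2B, a subunit of the ribonuclease that clears ribonucleotides from DNA, was at 91.2 CPM in HRK-expressing cells, against 56.3 CPM in HRK-negative cells. MYBL2, which drives genes of the cell cycle, was at 225 CPM in HRK-expressing cells, against 147 CPM in HRK-negative cells. The mitotic genes TOP2A, CKAP2 and HJURP were called higher at log2 ratios of 0.60, 0.65 and 0.61. Other called genes have no such role, among them CNTNAP2, a neuronal adhesion protein (0.61), the transcription factors FOXP1 (0.66) and TWIST1 (0.58), and TP53I11 (0.66). Most of these calls lay near the limit: with depth weighting TOP2A and HJURP were both at 0.25, CKAP2 at 0.47 and MYBL2 at 0.50. TMM scaling shifted every log2 ratio by -0.08. Of the genes in this paragraph only RNASEH2B and, barely, FOXP1 then stayed over the limit. CNTNAP2 and MYBL2, for example, were both at 0.53.

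Most genes of the cell cycle lists were higher by less. Over all genes at 5 CPM or more the median log2 ratio was 0.08, so most genes were over 0 with this scaling. Of all these genes 2.38% were higher by 1.5-fold or more and 1.07% lower by as much. Of 41 measured S phase genes 3 were higher by that rule, 0 were lower and 37 had a log2 ratio over 0, with a median of 0.28. Of 53 G2 and M phase genes 4 were higher, 0 were lower and 46 were over 0, with a median of 0.25. Of 20 G1 cyclins, kinases and inhibitors 3 were higher, 0 were lower and 17 were over 0, with a median of 0.25. The list medians stayed above 0 in each of the 3 other scalings, between 0.17 and 0.24. With depth weighting they were 0.24 for S phase, 0.10 for G2 and M phase and 0.17 for the G1 genes.

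Some genes of late mitosis differed the other way. CDC20, the activator of the anaphase-promoting complex, was at 38.9 CPM in HRK-expressing cells, against 54.6 CPM in HRK-negative cells. PTTG1, the securin, was at 253 CPM in HRK-expressing cells, against 327 CPM in HRK-negative cells. CCNB2, a mitotic cyclin, was at 47.1 CPM in HRK-expressing cells, against 61.7 CPM in HRK-negative cells. None of these 3 passed the 1.5-fold limit, and they were picked after their values were seen.

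Cells were also sorted by their own summed UMIs of the S phase and of the G2 and M phase lists, each split at the library median. HRK-expressing cells made up 30.7% (28.5 to 33.0%) of the 1636 cells over both medians. They made up 21.5% of cells over the G2 and M median alone and 18.0% of cells over the S median alone. Among the 1735 cells at or under both medians the share was 15.4% (13.7 to 17.2%). HRK over thinned cells was at 114, 81.4, 80.4 and 70.1 CPM in these 4 classes, in the same order. Depth moved with the classes too, at medians of 17219.5 UMIs in the first and 15088 in the last, and with at least 3 HRK UMIs counted after thinning the shares were 13.7% and 6.57%.

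Among the genes called lower were genes of peptides, secretory granules and neurons. CARTPT, the precursor of the CART neuropeptide, was at 196 CPM in HRK-expressing cells, against 367 CPM in HRK-negative cells, 1.87-fold lower (1.79 to 1.96). The library held 2 cell classes, 16-low and 16-high, by UMIs of the long arm of chromosome 16 against chromosome 13 (described with the chromosomes). Inside these classes the log2 ratios of CARTPT were 0.01 and 0.06. CHGB, the granin chromogranin B of secretory granules, was at 65.5 CPM in HRK-expressing cells, against 127 CPM in HRK-negative cells, 1.95-fold lower (1.80 to 2.11). Inside the same classes CHGB was under the 1.5-fold limit, at log2 ratios of -0.53 in 16-low and -0.38 in 16-high cells. SCG5, a chaperone of prohormone convertase 2, was at 29.2 CPM in HRK-expressing cells, against 49.1 CPM in HRK-negative cells. CYB561, which supplies electrons for peptide amidation and noradrenaline synthesis inside granules, was at 37.4 CPM in HRK-expressing cells, against 65.7 CPM in HRK-negative cells. These 4 genes act in or pass through the regulated secretory pathway. None of the 4 was called lower in both the 16-low and the 16-high class.

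STMN2, a regulator of microtubules in growth cones, was at 186 CPM in HRK-expressing cells, against 308 CPM in HRK-negative cells (1.65-fold lower, 1.58 to 1.74). TUBA1A, the main alpha tubulin of developing neurons, was at 277 CPM in HRK-expressing cells, against 427 CPM in HRK-negative cells (1.54-fold lower, 1.48 to 1.61). CRABP1, a retinoic acid binding protein, was at 16.6 CPM in HRK-expressing cells, against 30.0 CPM in HRK-negative cells. GFRA3, the receptor of artemin, was at 28.5 CPM in HRK-expressing cells, against 43.1 CPM in HRK-negative cells. TUBA1A was under the limit with depth weighting, at -0.51, and GFRA3 under a second random thinning, at -0.46. The direction of GFRA3 turned in 16-low cells, at 0.06, and it was at -0.14 in 16-high cells. The called gene with the greatest difference was HIST1H2AC, a histone H2A gene named after its value was seen, at 12.9 CPM in HRK-expressing cells, against 32.6 CPM in HRK-negative cells.

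Few genes of each neuronal list were lower by the 1.5-fold rule of the lists. Of all genes at 5 CPM or more 1.07% were lower and 2.38% higher by that rule. Counts of 1 to 3 genes in lists of this size rest on few genes and were not tested. Of 9 measured granin and prohormone genes 2 were lower, CHGB and SCG5, and CHGA was at 1276 CPM in HRK-expressing cells, against 1289 CPM in HRK-negative cells. Of 13 genes of catecholamine synthesis and transport 1 was lower, CYB561, with a list median of -0.19. That median was 0.01 in 16-low and 0.05 in 16-high cells. TH, the rate-limiting enzyme of that synthesis, was at 246 CPM in HRK-expressing cells, against 318 CPM in HRK-negative cells. SST, which encodes somatostatin, was at 596 CPM in HRK-expressing cells, against 782 CPM in HRK-negative cells, and neither TH nor SST passed the limit. Of 26 genes of the neuronal cytoskeleton and growth cone 3 were lower and 0 were higher, with a median of -0.01.

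Of 19 measured genes of axon guidance and adhesion 4 were higher, among them CNTNAP2, and 2 were lower, among them PLXNA2, a semaphorin receptor. The shares over all measured genes, 2.38% higher and 1.07% lower, apply to this and the next lists as well. The median of that list was 0.33, against 0.08 over all genes measured, and it was 0.21 in 16-low and 0.04 in 16-high cells. Of 15 measured genes of ALK and neurotrophin receptor signalling 2 were lower, GFRA3 and RET, with RET at 4.35 CPM in HRK-expressing cells, against 7.93 CPM in HRK-negative cells. Of 19 adrenergic transcription factors 1 was higher, DACH1, at 13.9 CPM in HRK-expressing cells, against 6.11 CPM in HRK-negative cells. Of 6 measured neuropeptide genes 1 was higher, NPY, and 1 was lower, CARTPT. NPY was at 15.6 CPM in HRK-expressing cells, against 9.46 CPM in HRK-negative cells. RET, DACH1 and NPY lay under the 20 CPM of a call and passed only the 5 CPM rule of the lists. RGS5, a regulator of G protein signalling, was at 3161 CPM in HRK-expressing cells, against 3095 CPM in HRK-negative cells. MYCN was at 377 CPM in HRK-expressing cells, against 457 CPM in HRK-negative cells, and ALK, the target of TAE684, at 5.78 CPM in HRK-expressing cells, against 4.50 CPM in HRK-negative cells. Neither RGS5 nor MYCN nor ALK passed the 1.5-fold limit, and the sign of RGS5 turned under the other scalings.

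**Figure D2:**
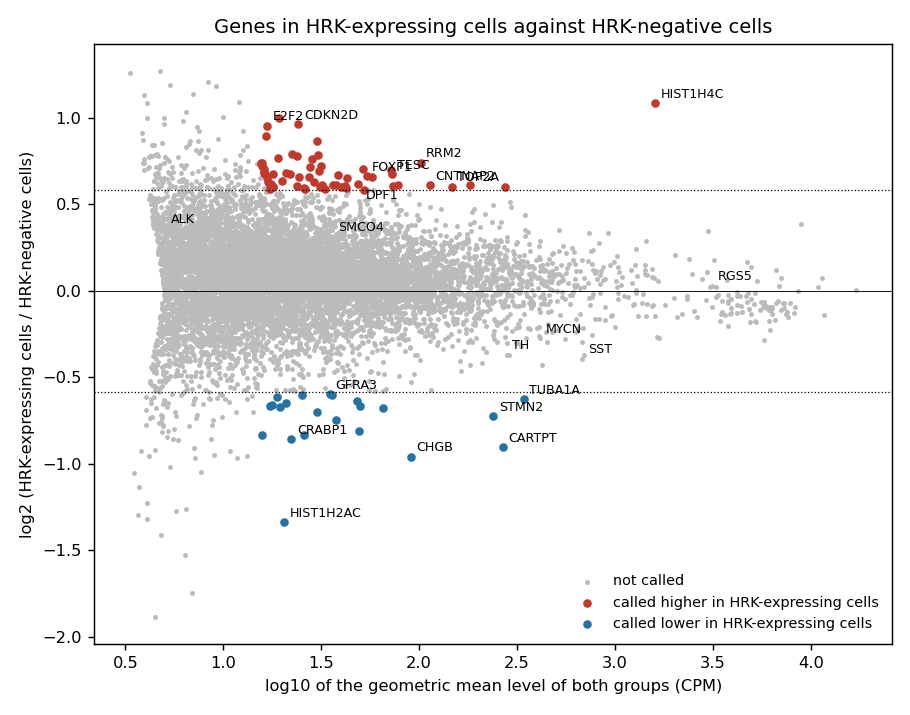
Log2 ratio of HRK-expressing over HRK-negative cells of the intermediate resistant library (vertical axis) against the geometric mean level of both groups in CPM (horizontal axis, log10), one point per gene at 5 CPM or more, with HRK left out. Red points are the 62 genes called higher, blue points the 22 called lower, and dotted lines mark 1.5-fold; HIST1H4C stands far to the upper right.

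No other measured BCL2 family gene was called. Over all genes at 5 CPM or more 2.38% were higher by 1.5-fold or more and 1.07% lower. Counts of 0 in short lists are near those shares and do not set the lists apart. Of 3 measured anti-apoptotic BCL2 family genes 0 were called, and BCL2L1 was at 19.2 CPM in HRK-expressing cells, against 18.1 CPM in HRK-negative cells, with MCL1 at 41.8 CPM in HRK-expressing cells, against 43.1 CPM in HRK-negative cells. Of 10 other pro-apoptotic members 0 were called. BBC3, which encodes the BH3-only protein PUMA, was at 8.54 CPM in HRK-expressing cells, against 10.3 CPM in HRK-negative cells. PMAIP1, which encodes NOXA, was at 32.8 CPM in HRK-expressing cells, against 31.4 CPM in HRK-negative cells. BAX, an effector of pore formation, was at 117 CPM in HRK-expressing cells, against 108 CPM in HRK-negative cells.

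Of 17 measured genes of the JNK and AP-1 pathway 0 were called, with a median of 0.11. Counts of 0 here and in the next lists are likewise near the 2.38% higher and 1.07% lower over all measured genes. JUN was at 31.0 CPM in HRK-expressing cells, against 33.8 CPM in HRK-negative cells, and ATF2 at 14.1 CPM in HRK-expressing cells, against 11.5 CPM in HRK-negative cells. Of 14 caspase and apoptosome genes 0 were called, with a median of 0.14. Of 14 genes of the integrated stress response and 10 FOXO-induced genes 0 were called in either list, and both medians were within 0.01 of 0. Of 11 measured p53 targets 1 was higher by 1.5-fold, SESN2, at 7.70 CPM in HRK-expressing cells, against 4.50 CPM in HRK-negative cells. SESN2 passed the 5 CPM rule of the lists but lay under the 20 CPM of a call.

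The cells carried the markers of their line. The sympathetic neuroblast markers GATA3, DBH and CHGA were measured in both groups, and none of them was called. Of markers of other cell types, the 8 mesenchymal or fibroblast markers summed to 41.9 CPM in HRK-expressing cells, against 40.9 CPM in HRK-negative cells, with THY1 the highest. The 6 Schwann cell markers summed to 18.9 CPM in HRK-expressing cells, against 16.9 CPM in HRK-negative cells, and the 5 epithelial markers to 10.5 CPM in HRK-expressing cells, against 15.1 CPM in HRK-negative cells. Their part in the results was not tested. Endothelial markers summed to 0.335 CPM in HRK-expressing cells, against 0.127 CPM in HRK-negative cells. Macrophage markers summed to 1.93 CPM in HRK-expressing cells, against 2.37 CPM in HRK-negative cells, and lymphocyte markers to 0.753 CPM in HRK-expressing cells, against 0.467 CPM in HRK-negative cells. All 4 erythroid markers were at 0 in both groups. Mitochondrially encoded genes had a list median of 0.12 and ribosomal proteins one of -0.09, and these abundant lists took part in the totals to which levels were scaled.

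Levels were then followed over the HRK count. HIST1H4C was at 1101, 1498, 1746, 2137, 2626 and 3170 CPM in cells with 0, 1, 2, 3 to 4, 5 to 9 and at least 10 HRK UMIs. RRM2 went through 78.7, 98.3, 111, 121, 146 and 193 CPM over the same classes. CARTPT was at 367, 313, 271, 207, 190 and 60.2 CPM, and CHGB at 127, 99.8, 88.5, 69.0, 61.3 and 40.1 CPM. These genes differed in the same direction at each of the 5 steps. The limit of 3 UMIs did not mark a break: HIST1H4C was at 2077 CPM in cells with exactly 3 HRK UMIs, against 1746 CPM in cells with exactly 2, and CHGB at 72.2 CPM with exactly 3, against 88.5 CPM with exactly 2. The class with at least 10 holds 42 cells, and the classes differ in depth before thinning, from 15130 UMIs in the first to 20357 in the last.

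**Figure D3:**
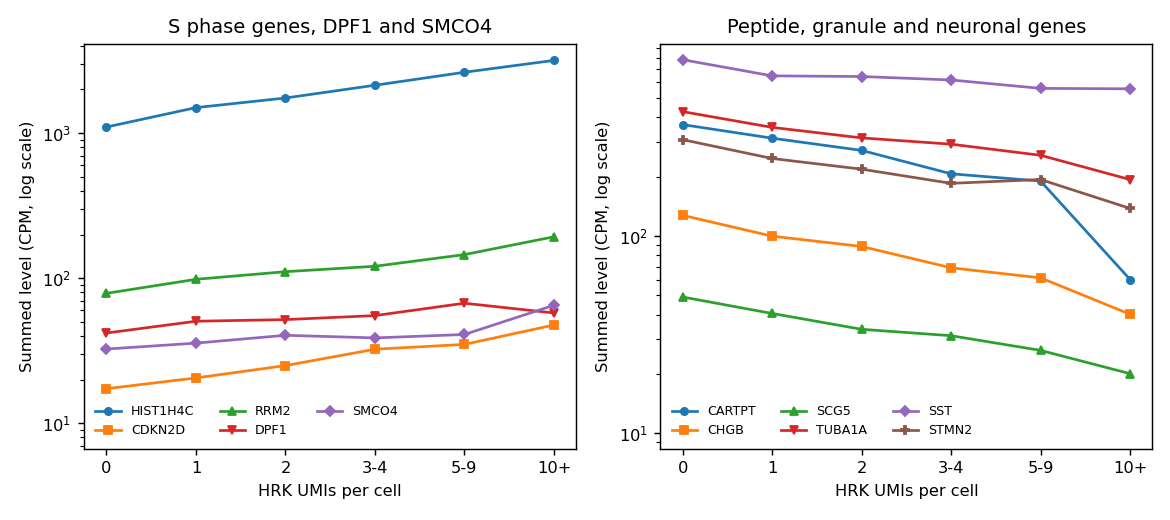
Summed level in CPM (log scale) over cells of the intermediate resistant library with 0, 1, 2, 3 to 4, 5 to 9 and at least 10 HRK UMIs, for S phase genes with DPF1 and SMCO4 (left) and for peptide, granule and neuronal genes (right). HIST1H4C climbs over every class, to 3170 CPM, and CARTPT, CHGB, SCG5, TUBA1A and SST decline over every class.

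Genes that differed were not spread evenly over the chromosomes. Gene order came from RefSeq on GRCh38.p14, and since counting used hg19 only names and order were taken, for 8351 of 9214 measured genes. On chromosome 13 the median log2 ratio was 0.33 over 149 genes, 135 of them over 0. On the long arm of chromosome 16, from SHCBP1 to DBNDD1, it was -0.23 over 159 genes, 35 of them over 0. On the short arm of chromosome 20, from C20orf96 to NINL, it was -0.31 over 74 genes, 8 of them over 0. The other 19 whole chromosomes had medians between 0.03 and 0.14, without chromosomes 12, 16 and 20, whose arms differed.

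HRK lies on the long arm of chromosome 12. That arm had a median of 0.15 over 377 genes, against 0.01 over the 108 genes of the short arm. The 40 measured genes nearest to HRK, from CUX2 to GATC, had a median of 0.22, with 33 of them over 0 and 2 called. Over the whole arm 280 of 377 genes were over 0 (74.3%). Over all measured genes 2.38% were higher by 1.5-fold or more. The called neighbours were TESC, a calcium-binding protein, at 91.6 CPM in HRK-expressing cells, against 57.4 CPM in HRK-negative cells, and FBXW8, a subunit of a ubiquitin ligase, at 29.5 CPM in HRK-expressing cells, against 17.1 CPM in HRK-negative cells. Of the 62 genes called higher, 8 lie on chromosome 13, where 70 genes reached 20 CPM (11.4%), and 6 on the long arm of 12, where 230 did (2.61%), against 1.28% over all genes. Of the 22 called lower, 2 lie on the long arm of 16 among 68 genes (2.94%) and 3 on the short arm of 20 among 36 genes (8.33%), CHGB among them, against 0.455% over all genes.

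**Figure D4:**
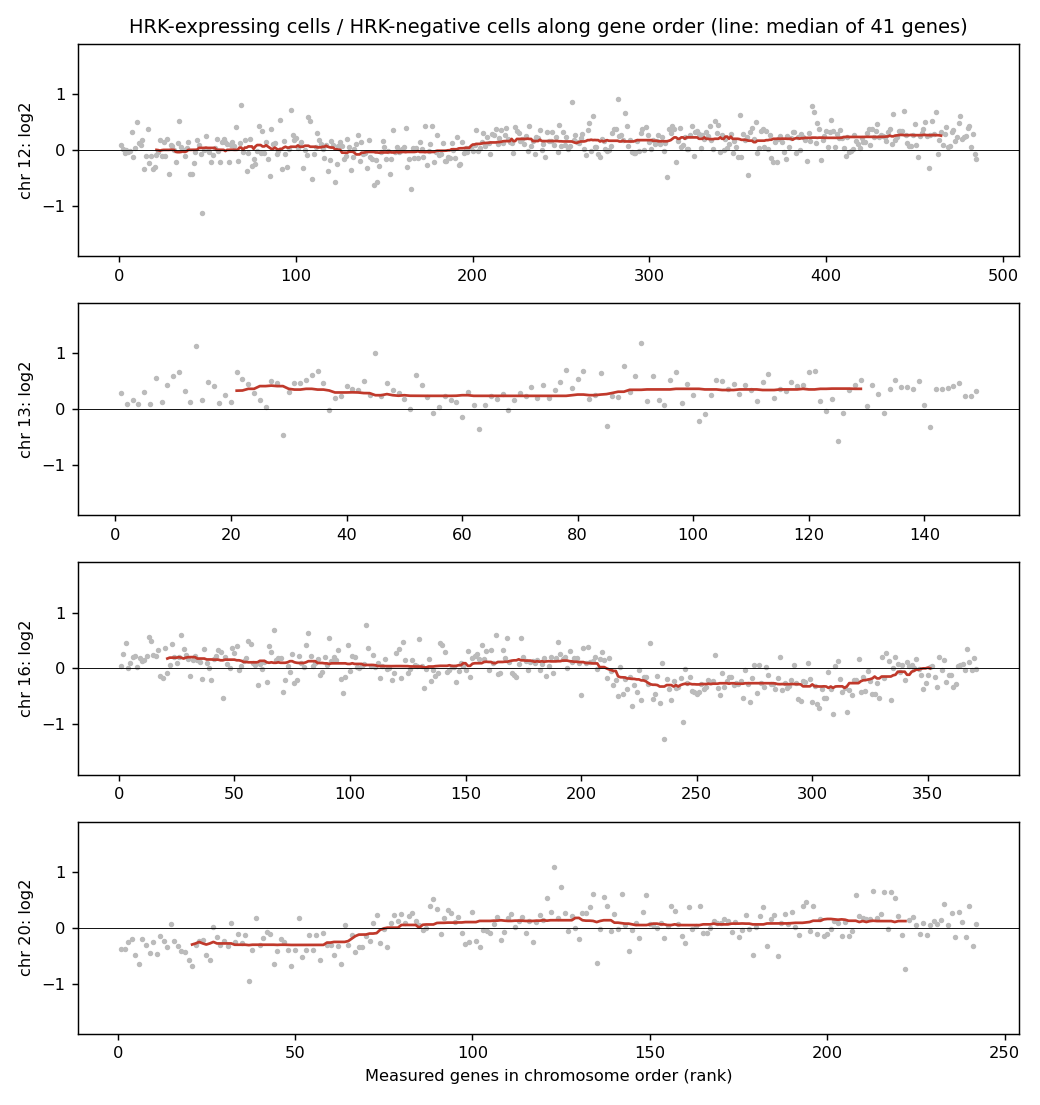
Log2 ratio of HRK-expressing over HRK-negative cells for measured genes in order along chromosomes 12, 13, 16 and 20 (points), with the running median of 41 genes (line). The line lies above 0 along chromosome 13, below 0 over most of the long arm of 16 and over the short arm of 20, and above 0 over the later part of 12.

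The library held 2 classes of cells by these chromosomes. For each cell, UMIs of the long arm of 16 were taken as a percentage of UMIs from that arm and chromosome 13. HRK UMIs do not enter this score. The 2 regions were chosen after they were seen to differ between the HRK groups. The score had 2 peaks in the intermediate resistant library, and 129 cells (2.21%) lay in the bin of the valley between them, at 50.2%. It gave 4022 cells with a low score (16-low) and 1814 with a high score (16-high). The classes differed in both regions. Chromosome 13 was at 14177 CPM in 16-low cells, against 8011 CPM in 16-high cells. The long arm of 16 was at 9140 CPM in 16-low cells, against 14042 CPM in 16-high cells. The median score was 53.8% for sensitive cells, 41.6% for intermediate resistant cells and 35.6% for fully resistant cells, with 86.3%, 31.1% and 0.188% of cells over the limit in the same order.

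HRK-expressing cells were mostly 16-low. Of them 86.1% were 16-low, against 56.0% of HRK-negative cells. The 2 regions of the score were chosen from these same HRK groups. The direction of this split, and of the HRK differences between the classes below, is therefore a description and no separate support. HRK-expressing cells made up 26.9% (25.6 to 28.3%) of 16-low cells and 9.65% (8.33 to 11.1%) of 16-high cells, at near equal median depth of 16036.5 and 16040 UMIs. HRK was at 106 CPM in 16-low cells, against 44.2 CPM in 16-high cells, a ratio of 2.41 (2.23 to 2.60). The 40 neighbours of HRK had a median log2 ratio of 0.59 between the same classes, all 40 over 0, against 1.27 for HRK itself and 0.17 for all measured genes. The whole long arm of chromosome 12 had a median of 0.50 over 377 genes, and its short arm 0.23 over 108 genes. Most of the neighbours' difference was thus shared by the arm. HRK was far above its sensitive level in both classes, 14.7-fold in 16-low cells (13.2 to 16.5) and 6.12-fold in 16-high cells (5.37 to 6.97).

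Within 16-low cells HRK was also set against the short arm of 20. That arm was chosen after it was seen to be lower in these same HRK-expressing cells. The direction of the split is therefore a description and no separate support. Cells with a chromosome 20 short-arm sum at or under the class median were HRK-expressing in 31.8% (29.8 to 33.8%), and cells over it in 21.8% (19.9 to 23.7%). In both classes cells over both cycle medians had a higher HRK-expressing share than cells at or under both. The full order of the library was not kept in 16-high cells. Of 16-high cells 9.11% were HRK-expressing over the G2 and M median alone and 6.83% over the S median alone. Of 16-low cells over both cycle medians 34.7% were HRK-expressing, against 21.4% of 16-low cells at or under both. Of 16-high cells over both medians 16.05% were HRK-expressing, against 8.12% of 16-high cells at or under both.

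**Figure D5:**
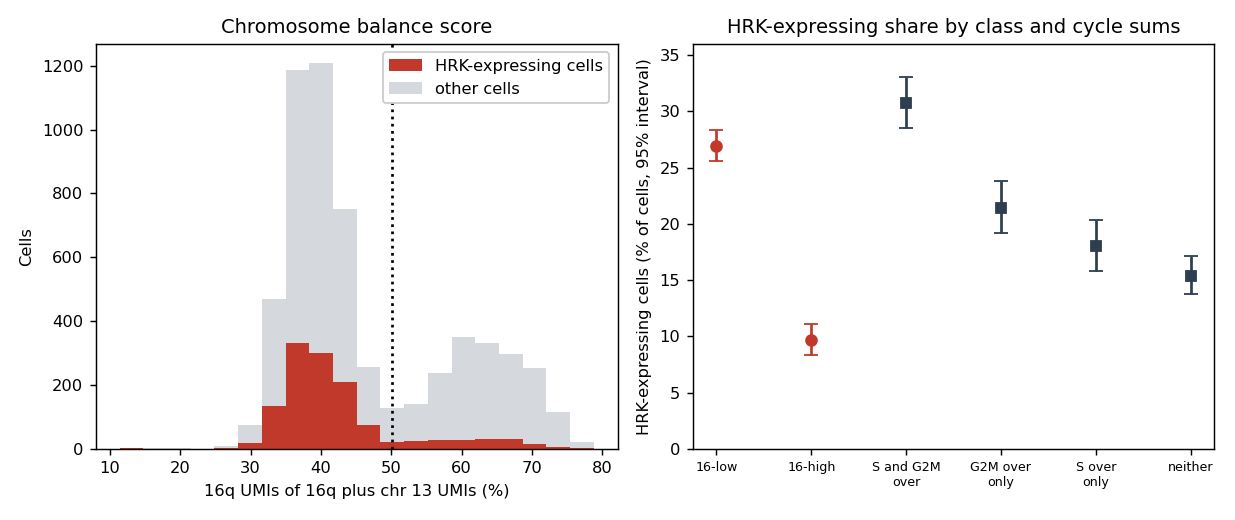
Left, number of cells of the intermediate resistant library by the percentage of long-arm chromosome 16 UMIs among those and chromosome 13 UMIs, with HRK-expressing cells in red and the limit of 50.2% dotted. Right, percentage of cells that are HRK-expressing, with exact 95% binomial intervals, in 16-low and 16-high cells (red) and by cell cycle sums (dark): 26.9% of 16-low and 9.65% of 16-high cells, 30.7% of cells over both cycle medians and 15.4% of cells over neither.

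Some differences held inside both classes and others did not. HIST1H4C was at 2355 CPM in HRK-expressing 16-low cells, against 1172 CPM in HRK-negative 16-low cells. In 16-high cells it was at 2224 CPM in HRK-expressing cells, against 1012 CPM in HRK-negative cells. STMN2 had a log2 ratio of -0.64 in 16-low and -0.59 in 16-high cells, E2F2 one of 0.62 and 1.63, and FOXP1 one of 0.60 and 0.63. For these 4 genes the direction and the 1.5-fold call were the same in both classes.

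CARTPT did not differ by HRK inside the classes. It was at 111 CPM in HRK-expressing 16-low cells, against 110 CPM in HRK-negative 16-low cells, and at 720 CPM in HRK-expressing 16-high cells, against 692 CPM in HRK-negative 16-high cells. Between the classes themselves CARTPT was 6.90-fold lower in 16-low cells (6.66 to 7.14). CHGB was 2.91-fold lower (2.76 to 3.07) and GFRA3 3.07-fold lower in 16-low than in 16-high cells. TESC had log2 ratios of 0.29 and 0.35 inside the classes, under the limit in both. SST was 1.69-fold lower in HRK-expressing 16-low cells (1.64 to 1.74), at 612 CPM against 1036 CPM in HRK-negative 16-low cells, and in 16-high cells it was at 492 CPM in HRK-expressing cells, against 460 CPM in HRK-negative cells.

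Most of the genes called over the whole library were not called inside a class. Of the 62 higher genes 17 were called in 16-low and 17 in 16-high cells, and of the 22 lower genes 7 and 8. Over all genes there were 20 higher and 16 lower calls in 16-low cells. In 16-high cells there were 95 higher and 63 lower calls, so the 17 and 8 were a smaller part of them. These counts use the cells that chose the genes. In both classes 6 of the 62 were called, E2F2, C1orf21, FOXP1, HIST1H4C, RP11-561B11.6 and CEP152. Of the 22 lower genes 4 were called in both, BCHE, HIST1H2AC, STMN2 and LETMD1. The S phase list had a median of 0.11 in 16-low and 0.36 in 16-high cells, and the G2 and M phase list 0.22 and 0.15. The 16-high values rest on 175 HRK-expressing cells.

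The same comparison was made in the other libraries, where too few cells held 3 HRK UMIs, with cells of at least 1 HRK UMI against cells with 0. In the sensitive library 528 such cells gave 3 higher calls (0.0607%) and 1 lower call (0.0202%) among 4944 genes. The higher genes were TG, GPHN and PIF1 and the lower gene was IGFBP5. In the fully resistant library 363 cells gave 11 higher calls (0.218%) and 4 lower calls (0.0792%) among 5051 genes. With the weaker limit of 1 HRK UMI the intermediate resistant library itself gave 7 higher and 4 lower calls.

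HIST1H4C was higher in the HRK-positive cells of both, by less than the limit. In the sensitive library it was at 1666 CPM in HRK-positive cells, against 1179 CPM in HRK-negative cells (1.41-fold, 1.38 to 1.45). In the fully resistant library it was at 1870 CPM in HRK-positive cells, against 1472 CPM in HRK-negative cells (1.27-fold, 1.24 to 1.30). Of the 62 genes called higher in the intermediate resistant library 1 was called in the sensitive library, PIF1, and 0 in the fully resistant one, with 59 and 42 having a ratio over 1, where 54.0% and 48.4% of all 4833 genes had one. Of the 22 called lower 0 were called in the sensitive and 1 in the fully resistant library, PLXNA2, with 18 and 13 having a ratio under 1, where 46.0% and 51.5% of all genes had one. The medians of chromosome 13, the long arm of 16 and the short arm of 20 lay between -0.01 and 0.04 in both libraries.

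The fully resistant library differed for several peptide and signalling genes. RGS5 was at 305 CPM in HRK-positive cells, against 144 CPM in HRK-negative cells (2.11-fold, 1.98 to 2.25). SST was at 627 CPM in HRK-positive cells, against 356 CPM in HRK-negative cells (1.76-fold, 1.68 to 1.84). CARTPT was at 58.6 CPM in HRK-positive cells, against 27.3 CPM in HRK-negative cells (2.14-fold, 1.84 to 2.49). These 3 genes were among the 11 called higher there. Over all cells CARTPT was at 3.11 CPM in sensitive cells, 305 CPM in intermediate resistant cells and 29.3 CPM in fully resistant cells. The HRK-positive cells of that library are few and had a median depth of 17728 UMIs, against 16412.5 in HRK-negative cells.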

How the data were processed

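Libraries were made with 10x Genomics 3′ v2 chemistry from polyadenylated RNA of Kelly cells, per the labels, with 1 library for each of 3 states. The authors deposited raw UMI counts of every gene in every barcode, cells and empty droplets alike. Per the submitters' processing notes, bcl2fastq and Cell Ranger were used on hg19; versions are not given in the sources used here. No deposited column was left unused (0 columns).

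Computed here, with Python 3.11.15, numpy 2.4.6 and scipy 1.17.1: cells were chosen by the stated rule, thinned without replacement to 9500 UMIs and summed per group, and levels were taken as CPM without HRK in the totals. Ratios carry exact conditional Poisson and shares exact Clopper-Pearson 95% intervals. PCR duplicates are collapsed by UMIs, and intervals cover counting error only. The call rule was 20 CPM in the higher group and 1.5-fold; gene lists used 5 CPM and 1.5-fold. TMM factors came from edgeR 4.0.16. The comparison was tested on simulated sums with changed genes. Doublets were kept and no caller was run; leaving out cells over 2 times the median UMIs was an alternative.

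Named genes were the 12 highest and 12 lowest ratios at 50 CPM or more, up to 4 of each of 49 lists at 20 CPM or more, and HRK, DPF1, SMCO4, ALK, MYCN, CTCFL, SST, TH and RGS5; others are named after their values were seen. The members, lists and rules were chosen with earlier results of these data known, so none is independent support. The 16-low and 16-high classes were added after seeing the data.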

Additional observations from a re-analysis of the deposited data

Results flagged for a closer look

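CARTPT differed in opposite directions by HRK in 2 libraries. Its log2 ratio of HRK-positive over HRK-negative cells was 1.10 in the fully resistant library and -0.90 for HRK-expressing over HRK-negative cells in the intermediate resistant library. The limits differ, at least 1 HRK UMI in the first and at least 3 in the second. With 1 library each the difference was not tested, and inside the 16-low and 16-high classes the ratio of the intermediate resistant library was near 0, at 0.01 and 0.06.

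HRK also appeared in data outside the cells. Barcodes of 10 to 100 UMIs in the intermediate resistant library held 129 HRK UMIs of 3338645, or 38.6 CPM, against 4.83 CPM in the sensitive library. The part of this RNA in the cells' HRK counts was not tested.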

How the results depend on the processing

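No paired analysis was possible because each state has 1 library. Against 62 genes higher and 22 lower, the counts were 38 higher without thinning, 24 higher and 42 lower with TMM scaling, 31 and 40 with median-of-ratios scaling, and 65 lower without mitochondrially encoded and ribosomal protein genes. They were 219 and 99 at 5 CPM, 18 and 8 at 50 CPM, 1208 and 1366 with no minimum, and 1 and 1 at 2-fold. They were 132 and 55 with at least 5 HRK UMIs, 7 and 4 with at least 1, 122 and 43 in cells at or under both cycle medians, 19 higher in cells over a cycle median, 20 higher in 16-low and 95 and 63 in 16-high cells. A second random thinning gave 60 higher, 42 of them shared, and 22 lower, 14 of them shared, so calls near the limit depend on the draw. Leaving out cells over 2 times the median UMIs, 107 cells that held 3.34% of HRK-expressing and 0.967% of HRK-negative cells, gave 63 and 29. Weighting HRK-negative cells to the depth of HRK-expressing cells gave 42 and 20. The share with at least 3 HRK UMIs was 0.0408%, 9.20% and 0.0685% after thinning in the sensitive, intermediate resistant and fully resistant libraries.

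Of 167 named genes, 3 values of genes past the limit turned direction: the log2 ratio of GFRA3 was 0.0598 in 16-low cells, and that of CARTPT 0.0117 in 16-low and 0.0570 in 16-high cells. The 2 classes differ in CARTPT and GFRA3 themselves, as given above. The settings lowering the number of cells or UMIs widen counting error, and 16-high cells had 175 HRK-expressing cells.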

Other observations

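Cells in the top 10% by SST UMIs were HRK-expressing in 17.8% (14.8 to 21.2%), against 22.0% (20.9 to 23.1%) of the other cells of the intermediate resistant library.

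Set against the sensitive library, the chromosome 13 median log2 ratio was -0.11 in 16-low and -1.10 in 16-high cells. The long arm of 16 had -0.90 in 16-low and -0.16 in 16-high cells, the short arm of 20 -0.49 and -0.13, and the long arm of 12 0.46 and -0.04. DPF1 was at 56.1 CPM in 16-low cells, against 33.3 CPM in 16-high cells, and SMCO4 at 40.6 CPM in 16-low cells, against 25.8 CPM in 16-high cells. Inside the classes their log2 ratios by HRK were 0.31 and 0.34 for DPF1 and 0.14 and 0.11 for SMCO4.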
